A study of Mus musculus with 2 samples.

Results

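Heat shock proteins and J-domain chaperones were represented by 74 of the 24091 genes in the deposited expression table. The members were chosen by gene symbol, namely the Hspa, Hspb, Hspd, Hspe, Hsph, and Hsp90 symbols and the Dnaja, Dnajb, and Dnajc symbols. From general knowledge of where each product works, 45 were placed in the cytosol or nucleus, 13 in the endoplasmic reticulum (ER) or its membrane, and 8 in mitochondria, while 8 were kept apart because their products sit elsewhere or their location is unsettled. The symbol also admits a few products that are not chaperones, such as Hspb11, a part of the ciliary transport machinery, and Hspbap1.

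Polyadenylated RNA was sequenced from 2 libraries of C57BL/6 mice, 1 from sham-irradiated animals (the sham library) and 1 from animals given pelvic radiation (the irradiated library), labelled 7.5 Gy for 5 days without saying whether this was a daily or a total dose. The libraries held 30600000 (sham) and 35000000 (irradiated) fragments. Gonadal fat was taken 2 months later and digested, and the floating cells of both groups were kept in culture for 3 days. Both sample titles also carry the term PBS, whose role is not given, and neither the age, the sex, nor the number of mice behind a library is given. There was 1 library per condition, so every difference below compares 1 culture with 1 culture, has no replicate check, and could not be tested.

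The labels call the material primary adipocytes, but the defining adipocyte markers were close to absent. Adipoq, the adipocyte hormone adiponectin, had 5 fragments in the sham and 10 in the irradiated library, and 7 of 10 adipocyte markers were under an FPKM (fragments scaled to gene length and library total) of 1 in both. The remaining 3 were Fabp4, a fatty acid carrier with an FPKM of 96.9 in both, Pnpla2, a lipase with 5.11 and 5.76, and Pparg, the regulator of fat cell formation, with 4.59 and 4.69. All 8 fibroblast and progenitor markers reached an FPKM of 1, and Col1a1, a chain of fibrillar collagen, stood at 1937.4 and 1428.1. The values below therefore describe a mixed culture. In such bulk RNA, fewer cells of a type and less RNA per cell cannot be told apart.

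Heat shock proteins bind unfolded or partly folded proteins and release them in cycles driven by ATP. Hsp70 proteins do so with the help of J-domain proteins, which bring them clients and stimulate their ATP hydrolysis, and Hsp90 proteins act later on clients that are nearly folded. Small heat shock proteins hold unfolded proteins without using ATP. Each compartment has its own set. Cytosolic members respond to heat and protein damage through the transcription factor HSF1, whereas ER members respond to unfolded secretory protein through ATF6 and XBP1. Cells that secrete much protein, such as collagen-producing fibroblasts, carry large ER sets.

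A few members were among the most abundant transcripts in both cultures. Together the members made up 1.67% of the summed FPKM of all genes in the sham and 1.54% in the irradiated library. Hsp90ab1, the constitutive cytosolic Hsp90, was the most abundant member with an FPKM of 916.4 and 855.0, rank 21 among all genes in both libraries. The ER members Hsp90b1 (also called GRP94) and Hspa5 (BiP) followed. Hspa8, the constitutive cytosolic Hsp70, was next with an FPKM of 471.0 and 458.2. The 8 most abundant members, Hsp90ab1, Hsp90b1, Hspa5, Hspa8, Hsp90aa1, Hspd1, Hspa9, and Hspe1, held 79.3% of the members' summed FPKM in the sham library (counting interval 79.1 to 79.5) and 77.6% in the irradiated library (77.3 to 77.8). At the other end, the heat-inducible Hsp70 genes Hspa1a and Hspa1b together reached only 2.09% of the FPKM of Hspa8 (1.93 to 2.25) in the sham library and 2.79% (2.62 to 2.98) in the irradiated library. These counting intervals, and all others given here, are exact 95% binomial (Clopper-Pearson) intervals from the fragments behind each value, widened by 0.01 on the log2 scale for the rounding of the deposited values. They cover counting error only.

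**Figure D1:**
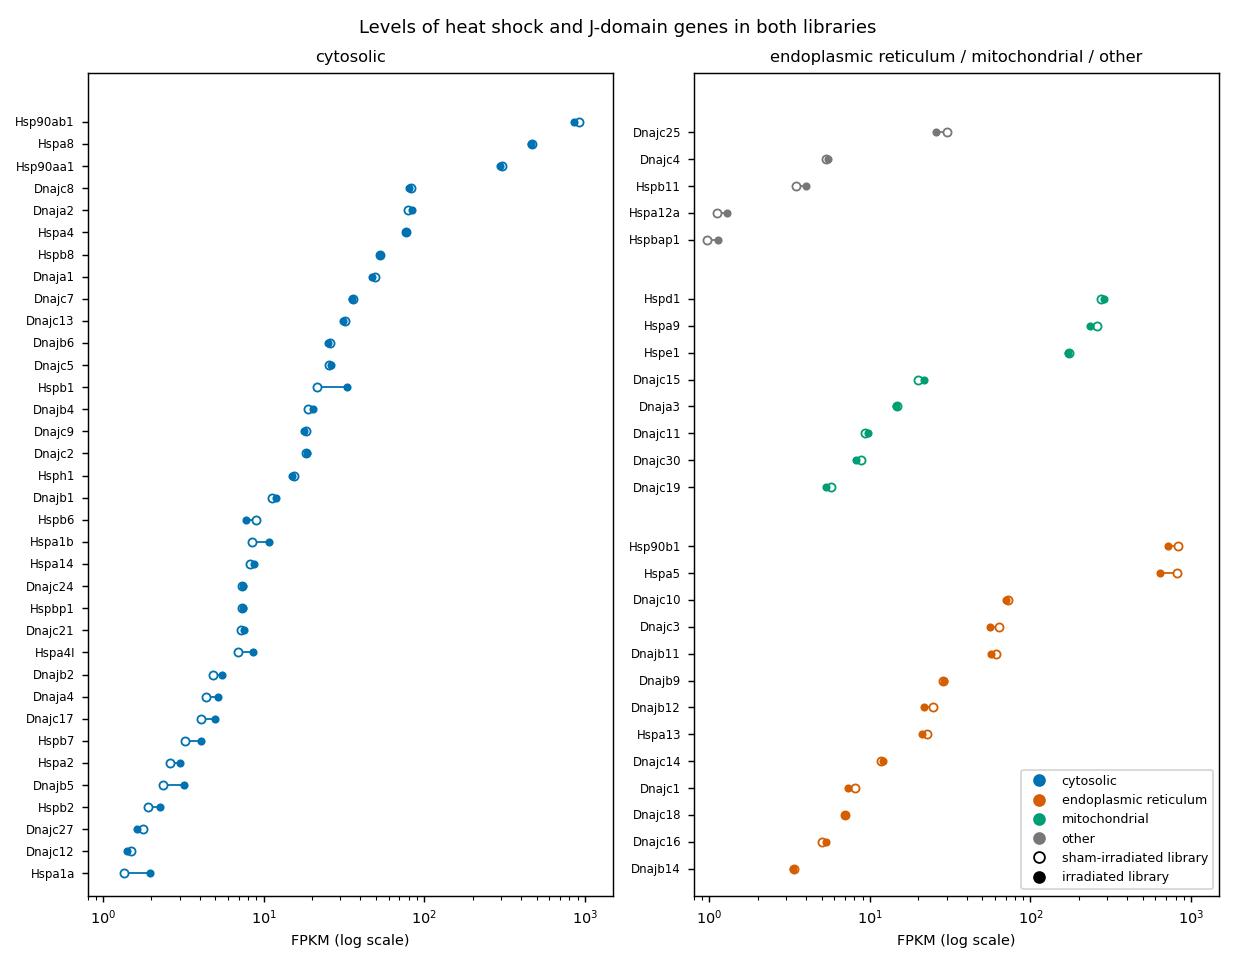
FPKM (log scale) of the 61 members that reached an FPKM of 1 in either library, with the sham library as open and the irradiated library as filled points, colored by compartment. Levels run from 0.972 for Hspbap1 in the sham library to 916.4 for Hsp90ab1, and for most members both points nearly coincide.

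Most members differed little between the cultures. Differences are given as the deposited log2(FPKM + 0.1) value in the irradiated library less the value in the sham library. Of the 74 members, 61 reached an FPKM of 1 in either library, and 1 of these, Hspbap1, did so in the irradiated library alone. Of these 61, 2 were higher by at least 0.5, which is 1.41-fold, namely Hspb1 and Hspa1a, and 0 were lower by as much. Among all 11253 genes that passed the same minimum, 4.31% were higher and 1.44% were lower by at least 0.5. By any amount, 31 members were higher and 29 were lower, beside 53.5% and 44.0% of all genes, and the members' split was 27 and 31 once differences were centred on the median of all genes, so it has no direction. The median difference of the 61 members was 0.01, and that of all genes was 0.02. Without the minimum, the medians were 0.02 over all 74 members and 0.00 over all genes. The counting interval lay above 0 for 9 members and below 0 for 12. It lay above 0 for 22.3% of all genes and below 0 for 15.9%. After centring, these counts were 9 and 15 members, beside 2186 and 2139 of the 11253 genes. The shares of all genes given below are as deposited. These intervals belong to the ratio of fragments without the added 0.1, and deep counts make them narrow, so an interval that leaves out 0 says nothing on how far 2 cultures of the same condition would differ.

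By compartment, 9 of the 13 ER members were lower in the irradiated library. The median difference was 0.03 for the 35 cytosolic members that passed the minimum, with single values from -0.20 to 0.61. It was -0.10 for the 13 ER members, from -0.35 to 0.08, and -0.03 for the 8 mitochondrial members, from -0.13 to 0.12. Of the cytosolic members, 21 were higher and 14 lower, or 18 and 15 after centring, which left 5396 of all genes higher and 5528 lower. Of the ER members, 3 were higher and 9 lower, or 2 and 10 after centring, and of the mitochondrial members 3 were higher and 5 lower. The ER members' share of the members' summed FPKM was 38.3% (38.0 to 38.6) in the sham library and 34.9% (34.6 to 35.2) in the irradiated library. The cytosolic share was 45.8% (45.5 to 46.1) and 48.3% (47.9 to 48.6), and the mitochondrial share was 15.0% (14.8 to 15.2) and 16.0% (15.8 to 16.2). The summed FPKM itself was 1954.1 and 1647.4 for the ER, 2336.3 and 2275.9 for the cytosol, and 767.2 and 753.1 for mitochondria. Each sum was lower in the irradiated library and that of the ER differed most, by -0.25 on the log2 scale. Most of the ER sum came from its 3 Hsp-named members, at 1668.9 and 1379.0. Its 10 Dnaj-named members summed to 285.2 and 268.4, a difference of -0.09 on the log2 scale.

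**Figure D2:**
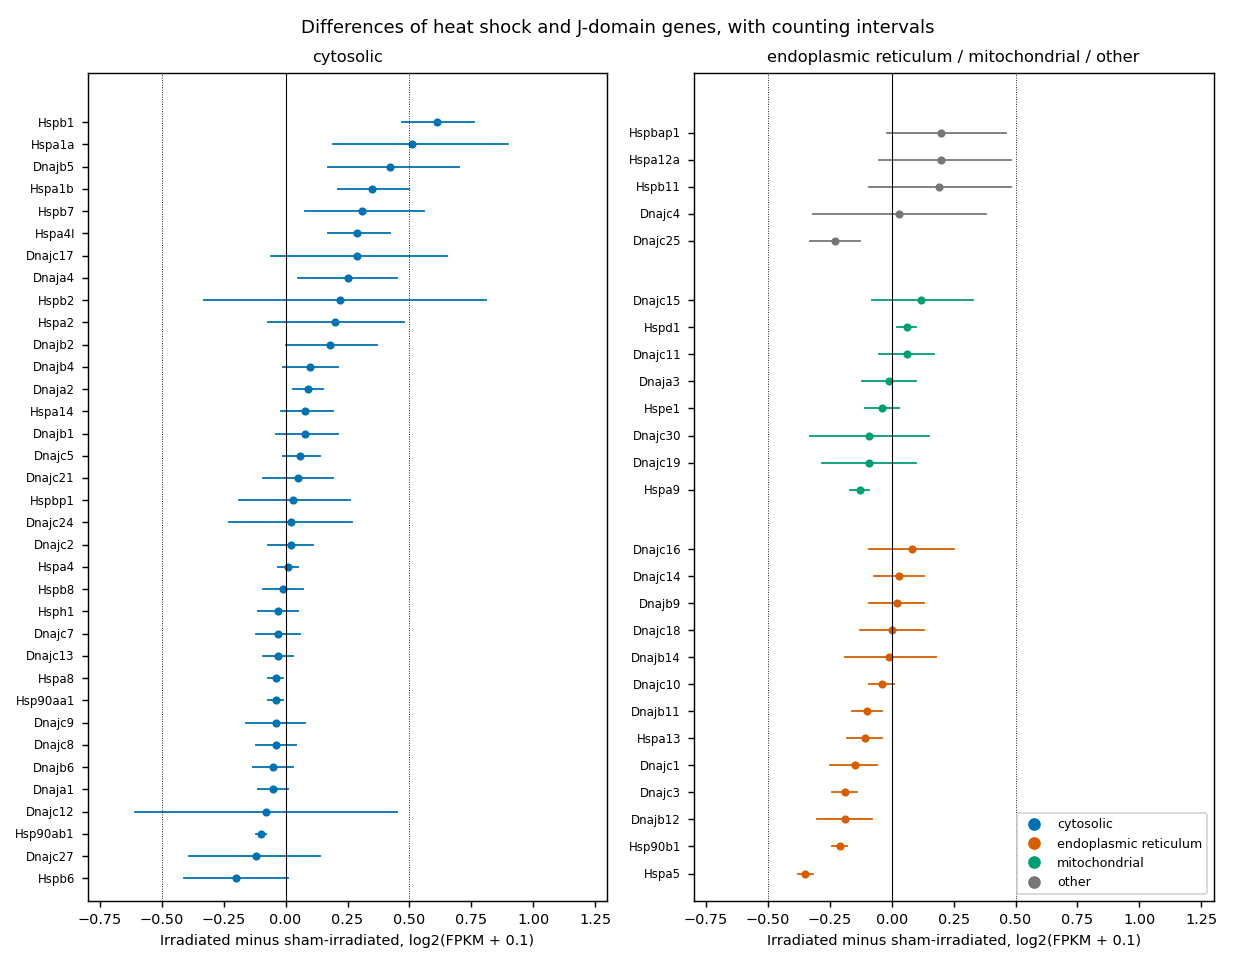
Difference of each of the 61 members (points, irradiated minus sham-irradiated, log2(FPKM + 0.1)) with its counting interval (lines, fragment ratio without the added 0.1), by compartment, with dotted lines at -0.5 and 0.5. Hspb1 (0.61) and Hspa1a (0.51) lie beyond 0.5, and 7 of the 13 ER members have an interval below 0, with Hspa5 lowest at -0.35.

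The abundant ER chaperones were lower in the irradiated library. Hspa5, the ER Hsp70 that binds nascent chains as they enter the ER, had an FPKM of 814.5 (sham) and 639.0 (irradiated), a difference of -0.35 (counting interval -0.38 to -0.32). Its rank among all genes went from 33 to 50. Hsp90b1, the ER Hsp90, had 831.6 and 719.0, a difference of -0.21 (-0.24 to -0.18). The FPKM of Hspa5 was 97.9% of that of Hsp90b1 in the sham library (96.2 to 99.7) and 88.9% in the irradiated library (87.3 to 90.5), so the pair did not differ by the same amount. Both stood far above every other ER member in level.

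The promoters of both genes are shown because they carry the ER stress response element, which is CCAAT, then 9 bases of any kind, then CCACG, on either strand. The sequences are the 250 bases before each gene's start, 5′ to 3′ on the gene's own strand, from RefSeq on GRCm38.p6, with each exact match to the element in capitals. Hspa5 lies on chromosome 2 and its stretch on the plus strand at chr2:34771840-34772089, and Hsp90b1 lies on chromosome 10 with its stretch on the minus strand at chr10:86705445-86705694.
Hspa5: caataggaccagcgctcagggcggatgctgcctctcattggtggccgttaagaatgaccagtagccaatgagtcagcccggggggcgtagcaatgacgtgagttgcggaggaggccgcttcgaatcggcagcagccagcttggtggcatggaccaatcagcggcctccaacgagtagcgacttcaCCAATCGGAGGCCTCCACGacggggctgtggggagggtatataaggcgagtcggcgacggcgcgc
Hsp90b1: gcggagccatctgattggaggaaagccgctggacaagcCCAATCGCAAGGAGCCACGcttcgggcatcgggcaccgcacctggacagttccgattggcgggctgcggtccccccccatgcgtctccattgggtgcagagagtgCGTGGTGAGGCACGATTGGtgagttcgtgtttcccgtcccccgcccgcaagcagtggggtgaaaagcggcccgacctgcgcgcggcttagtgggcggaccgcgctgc
The Hspa5 stretch held 1 match, which begins at -65 from the start, and the Hsp90b1 stretch held 2, at -212 and -107.

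The J-domain members of the ER were not all lower. Dnajc3 (p58IPK), a luminal co-chaperone, had an FPKM of 63.5 and 55.6, a difference of -0.19 (-0.24 to -0.14). Dnajb12, anchored in the ER membrane with its J domain toward the cytosol, had 24.7 and 21.6, also a difference of -0.19 (-0.30 to -0.08). Dnajb11 (ERdj3), which delivers unfolded chains to Hspa5, had 60.9 and 56.8, a difference of -0.10 (-0.16 to -0.04). For Dnajc10 (ERdj5), a reductase that unlinks disulfide bonds, the values were 72.4 and 70.4, and its interval of -0.09 to 0.01 included 0. Dnajb9 (ERdj4), a strongly stress-responsive member, had 28.5 and 28.9, a difference of 0.02 (-0.09 to 0.13). The largest positive ER difference was that of Dnajc16, 0.08 with an interval of -0.09 to 0.25. In all, 7 of the 13 ER members had an interval below 0 and none had an interval above 0, beside 15.9% and 22.3% of all genes. The share depends on level, since the interval was below 0 for 204 of the 500 genes with a mean FPKM of at least 100, for 983 of 4561 genes from 10 to under 100, and for 580 of 6015 genes from 1 to under 10. The other 2 with an interval below 0 were Dnajc1 and Hspa13, named after their values were seen, with differences of -0.15 and -0.11. Dnajc14, Dnajc18, and Dnajb14, named likewise, differed by at most 0.03 in size. The Dnaj-named ER members alone had a median difference of -0.03 over 10 genes, and the 3 Hsp-named ER members, Hspa5, Hsp90b1, and Hspa13, one of -0.21.

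The differences of the abundant members were set beside those of other abundant genes. Of the 500 genes with a mean FPKM of at least 100, 289 were lower in the irradiated library, and their median difference was -0.03, with values from -0.76 to 0.96. The 8 members at this level had a median of -0.07, and 7 of them were lower. The exception was Hspd1. At a mean FPKM from 10 to under 100, the 25 members had a median of -0.03 and all 4561 genes one of 0.00. At 1 to under 10, the 28 members had a median of 0.08, with 20 higher and 7 lower, and all 6015 genes one of 0.04, with 3486 higher and 2412 lower. The direction thus varied with level, for the members and for all genes.

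**Figure D3:**
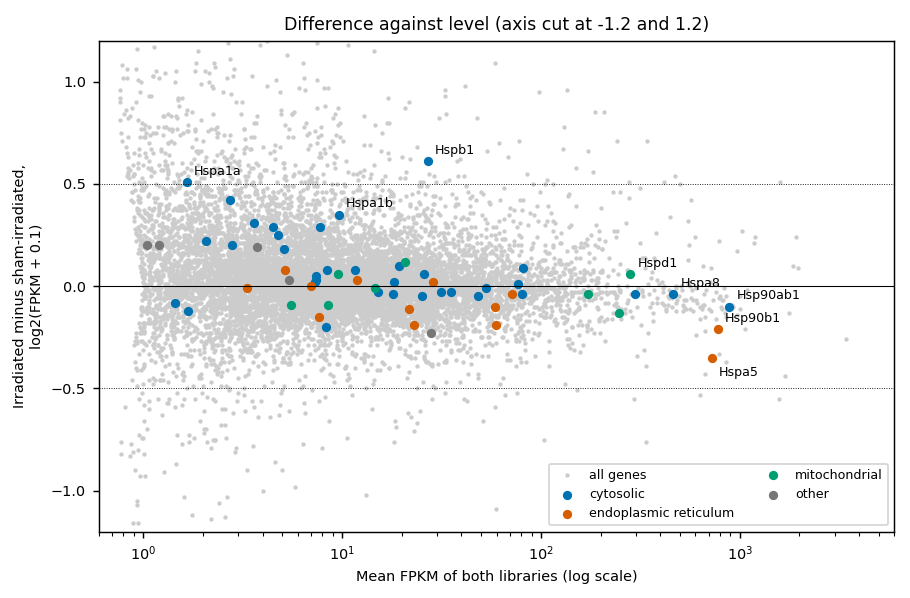
Difference (irradiated minus sham-irradiated, log2(FPKM + 0.1)) against mean FPKM of both libraries (log scale) for 11253 genes in gray, with the members colored by compartment, and 77 genes beyond the range of -1.2 to 1.2 not shown. Among members, Hspa5 is the lowest at -0.35 and Hspb1 the highest at 0.61.

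The highest cytosolic differences were those of Hspb1, Hspa1a, Dnajb5, Hspa1b, and Hspb7, all at low or middle levels. Of the 35 cytosolic members that passed the minimum, 8 had a counting interval above 0 and 3 below 0. Among all genes, the shares were 22.3% and 15.9%. Hspb1 (Hsp25 in mice), a small heat shock protein that also binds actin filaments, had an FPKM of 21.5 and 32.8, a difference of 0.61 (0.47 to 0.76). Of the 4561 genes with a mean FPKM from 10 to under 100, 67 were higher by at least 0.5. Hspa1a and Hspa1b encode nearly the same inducible Hsp70. Hspa1a had 1.35 and 1.97 on 116 and 193 fragments, a difference of 0.51 (0.19 to 0.90), and Hspa1b had 8.47 and 10.8 on 728 and 1064 fragments, a difference of 0.35 (0.21 to 0.50). Since fragments from the shared sequence could have been given to either gene, the split between them is uncertain. Dnajb5, a J-domain protein of the same class as the heat-inducible Dnajb1, had 2.35 and 3.17, a difference of 0.42 (0.17 to 0.70). Hspb7, best known from heart muscle, had 3.24 and 4.04, a difference of 0.31 (0.08 to 0.56). Hspa4l, a nucleotide exchange factor for Hsp70 named after its value was seen, had 6.96 and 8.53, a difference of 0.29 (0.17 to 0.42). All of these but Hspb1 had a mean FPKM from 1 to under 10. Of the 6015 genes at that level, 342 were higher by at least 0.5 and 1295 had an interval above 0.

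Several other members known as heat-inducible had close values in both libraries. Dnajb1, the main heat-inducible J-domain protein of the cytosol, had an FPKM of 11.3 and 11.9, a difference of 0.08 (-0.04 to 0.21). Hsph1 (Hsp110), an inducible exchange factor for Hsp70, had 15.5 and 15.1, a difference of -0.03 (-0.11 to 0.05). Hsp90aa1, the inducible Hsp90, had 302.2 and 294.0, a difference of -0.04 (-0.07 to -0.01). Dnaja1 had 49.1 and 47.4, a difference of -0.05 (-0.11 to 0.01), and Dnajb4 had 18.8 and 20.2, a difference of 0.10 (-0.01 to 0.21). Hspb8, a small heat shock protein that works with Bag3 in autophagy, had 53.3 and 53.0, a difference of -0.01 (-0.09 to 0.07).

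Of the constitutive cytosolic members, Hsp90ab1 and Hspa8 were lower in the irradiated library by 0.10 or less on the log2 scale. Hspa8 differed by -0.04 (-0.07 to -0.01) and Hspa4, an exchange factor for it, by 0.01 (-0.03 to 0.05) at an FPKM of 76.5 and 77.1. Hsp90ab1 differed by -0.10 (-0.12 to -0.08). The FPKM of Hsp90aa1 was 33.0% of that of Hsp90ab1 in the sham library (32.3 to 33.7) and 34.4% in the irradiated library (33.7 to 35.1). The largest negative cytosolic difference was that of Hspb6 (Hsp20), a small heat shock protein of muscle, with an FPKM of 8.96 and 7.79, a difference of -0.20 (-0.41 to 0.01), and its fragments could be shared with Gapdhs and a predicted gene that overlap it. So the small heat shock genes were not all higher. Hspb1, Hspb7, and Hspb2 were higher, and as deposited the intervals of Hspb1 and Hspb7 left out 0. Hspb6 was lower, with an interval that ended within 0.02 of 0, the size of the shift by centring. Hspb8, at -0.01 (-0.09 to 0.07), had close values in both libraries. As deposited, no small heat shock gene that passed the minimum had an interval below 0.

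J-domain proteins of the cytosol mostly differed little. Of 19 that passed the minimum, 11 were higher and 8 lower, with a median difference of 0.02, and the intervals of 3 were above 0 and of 0 below 0, beside 22.3% and 15.9% of all genes. Beside Dnajb5 these were Dnaja2 and Dnaja4, both named after their values were seen. Dnaja2, a partner of Hspa8, had an FPKM of 79.2 and 84.3, a difference of 0.09 (0.03 to 0.15). Dnaja4, of the same class, had 4.34 and 5.18, a difference of 0.25 (0.05 to 0.45). Dnajc8, a splicing factor at a similar level to Dnaja2 and named likewise, had 82.0 and 79.8, a difference of -0.04 (-0.12 to 0.04).

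Grouped by family in place of compartment, the 3 Hsp90 genes were all lower in the irradiated library, with a summed FPKM of 2050.3 and 1868.0. The genes with Hspa symbols, the exchange factors Hspa4 and Hspa4l included, held both directions. Of the 11 that passed the minimum, 7 were higher, while all 13 summed to 1672.2 and 1466.1, lower mainly through Hspa5. The 8 genes with Hspb symbols, Hspb11 included, summed to 92.5 and 103.8. Of the 6 that passed the minimum, 4 were higher and 2 lower. Of the J-domain classes, A summed to 147.4 and 151.6, B to 181.2 and 177.2, and C to 481.9 and 467.3, and their medians lay between -0.03 and 0.04.

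The stretches before Hspa1a, Hspa1b, and Hspb1 are shown because these heat-inducible genes were among the highest cytosolic differences. They are again 250 bases from RefSeq on GRCm38.p6, 5′ to 3′ on the gene's strand, and capitals mark a pair of facing heat shock units, GAANNTTC or TTCNNGAA, each of which reads the same on both strands. Hspa1a is shown from the minus strand at chr17:34972157-34972406, Hspa1b from the minus strand at chr17:34959239-34959488, and Hspb1 from the plus strand at chr5:135887669-135887918.
Hspa1a: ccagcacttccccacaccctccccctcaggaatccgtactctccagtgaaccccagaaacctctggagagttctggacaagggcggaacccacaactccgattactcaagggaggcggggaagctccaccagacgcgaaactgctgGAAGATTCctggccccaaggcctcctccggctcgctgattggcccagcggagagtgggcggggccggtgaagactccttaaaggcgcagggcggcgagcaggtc
Hspa1b: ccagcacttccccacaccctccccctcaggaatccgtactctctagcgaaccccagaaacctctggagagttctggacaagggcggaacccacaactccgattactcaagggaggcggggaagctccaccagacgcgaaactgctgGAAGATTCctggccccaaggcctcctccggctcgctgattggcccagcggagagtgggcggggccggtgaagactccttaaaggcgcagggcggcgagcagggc
Hspb1: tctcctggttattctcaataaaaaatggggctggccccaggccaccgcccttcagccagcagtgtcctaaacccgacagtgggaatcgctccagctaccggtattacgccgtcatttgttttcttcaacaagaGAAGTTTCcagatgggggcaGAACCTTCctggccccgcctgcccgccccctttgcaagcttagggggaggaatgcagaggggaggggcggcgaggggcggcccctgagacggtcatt
The Hspa1a and Hspa1b stretches were the same at 247 of 250 bases, and each held 1 such pair, which begins at -104. The Hspb1 stretch held 2, at -117 and -97.

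Mitochondrial members differed little. Hspd1 (Hsp60), the chaperonin of the matrix, had an FPKM of 276.2 and 287.9, a difference of 0.06 (0.02 to 0.10). Hspe1 (Hsp10), the lid of the same chaperonin, had 174.8 and 170.0, a difference of -0.04 (-0.11 to 0.03). Hspa9 (mortalin), the matrix Hsp70 that pulls imported chains inward, had 257.7 and 235.5, a difference of -0.13 (-0.17 to -0.09), the lowest in the compartment. Dnaja3 (Tid1), its J-domain partner, had 14.7 and 14.6, a difference of -0.01 (-0.12 to 0.10). Dnajc15, of the import motor at the inner membrane, had 20.0 and 21.8, the highest difference at 0.12 (-0.08 to 0.33). The remaining 3, Dnajc11, Dnajc19, and Dnajc30, lay between -0.09 and 0.06 with intervals that included 0.

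Hspd1 and Hspe1 stand head to head on chromosome 1, with 215 bases between their starts. This stretch, at chr1:55087933-55088147 on the plus strand, which is that of Hspe1, is shown because it is known as the promoter of both. Capitals mark the places where 3 heat shock units alternate (GAA, 2 bases, TTC, 2 bases, GAA, or the reverse order).
Hspd1-Hspe1: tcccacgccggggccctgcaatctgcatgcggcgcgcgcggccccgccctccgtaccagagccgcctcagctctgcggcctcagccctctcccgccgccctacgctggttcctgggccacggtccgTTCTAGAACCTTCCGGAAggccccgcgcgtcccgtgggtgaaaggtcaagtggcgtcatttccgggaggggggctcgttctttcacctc
Here 2 overlapping matches begin at bases 127 and 132 from the first base shown, so 4 units stand in a row.

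Over all members, 60 of 74 had a promoter sequence in the RefSeq table, a window of 250 bases before to 50 after the start, beside 17453 of all genes. The triplet of heat shock units was in the windows of 4 of these 60, Hspd1, Hspe1, Hsph1, and Dnajb6, and in 0.567% of all windows. The first pair of genes share it. A pair of facing units was in 13 of the 60 windows and in 14.0% of all windows. Its carriers included Hsph1, Dnaja1, and Hspb8, whose differences were -0.03, -0.05, and -0.01, as well as Hspa1a, Hspa1b, and Hspb1, and the windows of Dnajb5 and Hspb7 held none. The ER stress response element was in the windows of 3 of 11 ER members, Hspa5, Hsp90b1, and Dnajc3, in 0 of 37 cytosolic and 0 of 5 mitochondrial ones, and in 0.16% of all windows. Another motif, TGACGTGG on either strand, which XBP1 and ATF6 are known to bind, was in 1 of the 60 windows, that of Dnajc25, and in 0.71% of all windows. These matches describe the letters and show no binding.

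Of the 8 members kept apart, 5 passed the minimum, with a median difference of 0.19, which was 0.11 with log2(FPKM + 1), and a mean of 0.08. Dnajc25, a membrane protein of unsettled function, had an FPKM of 30.2 and 25.7, a difference of -0.23 (-0.33 to -0.13). Hspb11 differed by 0.19 (-0.09 to 0.48), Dnajc4 by 0.03 (-0.32 to 0.38), and Hspbap1 and Hspa12a tied for the highest difference at 0.20, with intervals that included 0.

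In neither library did 13 members reach an FPKM of 1, and for none of these was a difference detectable at this depth. No fragments were listed for Dnajb7, Dnajb8, and Dnajc5g, and 3 fragments on a gene of 1 kb would be an FPKM of 0.0981 (sham) and 0.0857 (irradiated). Hspb3, Hspb9, Hspa1l, Dnajb13, Dnajc5b, and Dnajc22 had at most 6 fragments in a library. Several of these genes are known from testis or from ciliated cells. Of 6 male germ cell markers, 5 had no fragments in either library, Ldhc had 4 and 0, and all 4 markers of multiciliated cells were under an FPKM of 1. Dnajb3 had 18 and 27 fragments and lies within the Ugt1a genes on the opposite strand. The others were Dnajc6, Dnajc28, and Hspa12b, with an FPKM from 0.411 to 0.987.

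Genes that work with the members were examined by list. The ER list of 24 folding and degradation genes leaned the same way as the ER members. Of 23 that passed the minimum, 5 were higher and 16 lower, with a median difference of -0.10, and the counting interval was below 0 for 14 and above 0 for 3, beside the shares of 15.9% and 22.3% of all genes and the larger share below 0 among abundant genes. Calr (calreticulin), the lectin chaperone for glycoproteins, was the most abundant with an FPKM of 1144.0 and 989.0, a difference of -0.21 (-0.24 to -0.18). Sdf2l1, a partner of Hspa5 and Dnajb11, had 29.8 and 21.5, the lowest difference at -0.47 (-0.62 to -0.33). Xbp1 had 60.0 and 54.1, a difference of -0.15 (-0.22 to -0.08). On the other side, Hyou1, the ER exchange factor for Hspa5, differed by 0.03 (-0.02 to 0.08), and Ern1 (IRE1), the sensor that activates XBP1, by 0.17 (0.05 to 0.29), the highest in the list. Manf and Creld2, secreted ER stress proteins named after their values were seen, differed by -0.32 and -0.28. Atf6 and Ero1l, named likewise, differed by 0.10 (0.02 to 0.18) and 0.12 (0.04 to 0.20). They and Ern1 were the 3 with an interval above 0.

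The other lists were described in the same way. Of 23 HSF and co-chaperone genes, 12 were higher and 11 lower, with a median of 0.01, and 9 were higher and 14 lower after the same centring. Hsf1 itself had an FPKM of 9.48 and 9.55, a difference of 0.01 (-0.15 to 0.17). Values in this list ran from Stub1, the ubiquitin ligase CHIP, at -0.19 (-0.29 to -0.09), to Bag2 at 0.17 (0.02 to 0.33), and Ptges3, the Hsp90 co-chaperone p23, was the most abundant with a difference of -0.09. Of the 8 subunits of TRiC, the cytosolic chaperonin, 1 was higher and 7 lower (0 and 7 after centring), with a median of -0.04, and their differences lay between -0.09 for Tcp1 and 0.02 for Cct4, and Cct2 was the most abundant with an FPKM of 218.2 and 212.2. Of 14 mitochondrial protease and import genes, 8 were higher and 6 lower (5 and 8 after centring), from Lonp1, the matrix protease, at -0.19 (-0.27 to -0.11) to Grpel2, an exchange factor for Hspa9, at 0.23 (0.06 to 0.42), and Timm23, an import channel and the most abundant, was at 0.01.

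Cryab (αB-crystallin) is a small heat shock protein under another symbol and was higher in the irradiated library. Its FPKM was 120.2 (sham) and 179.7 (irradiated), a difference of 0.58 (0.52 to 0.64), close to that of Hspb1. Of the 500 genes with a mean FPKM of at least 100, 18 were higher by at least 0.5. Cryab overlaps Hspb2 head to head on chromosome 9. Hspb2 had an FPKM of 1.91 and 2.25 and a difference of 0.22 (-0.33 to 0.81), and whether the counting used strand is not given, so their fragments may be mixed. Trap1, the mitochondrial Hsp90, had 30.0 and 28.3, a difference of -0.08 (-0.18 to 0.02), the lowest in this list of 9 genes. Of the 7 that passed the minimum, 6 were higher and 1 lower, with a median of 0.06.

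**Figure D4:**
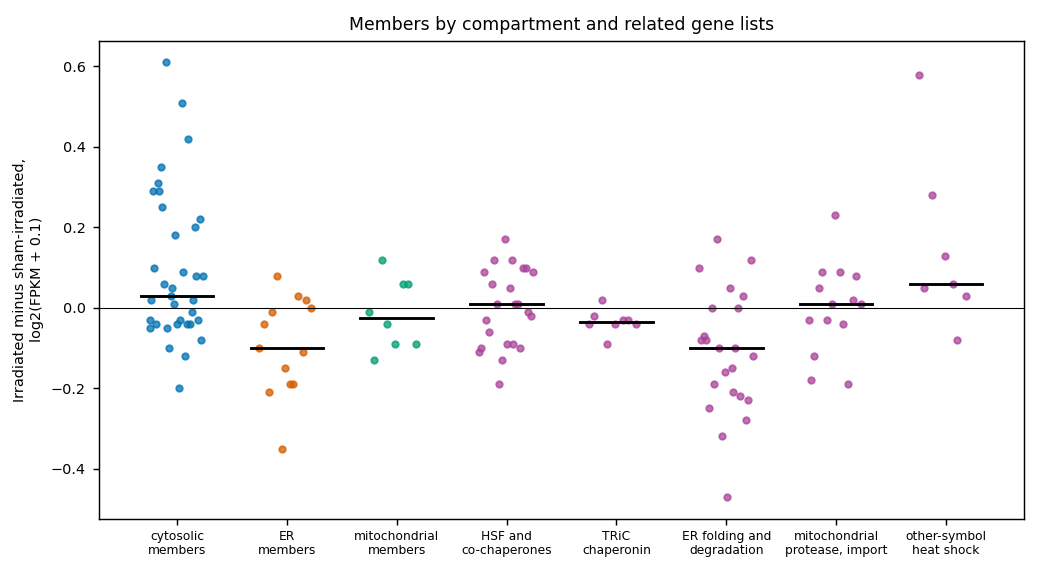
Difference (irradiated minus sham-irradiated, log2(FPKM + 0.1)) of the cytosolic, ER, and mitochondrial members and of the related gene lists, with 1 point per gene that reached an FPKM of 1 in either library and black bars at the medians. The medians of the ER members and of the ER folding and degradation list are both -0.10, and those of the other groups plotted lie between -0.04 and 0.06.

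Markers of the cells in the culture moved beside these values. The 8 fibroblast and progenitor markers summed to 4282.5 and 3377.2 in FPKM, with 6 of 8 lower and Col1a1 the most abundant at a difference of -0.44. Of the 8, 5 had a counting interval below 0. Dcn, at 548.6 and 552.5, and Lum both differed by 0.01. Dpt differed by -0.05 with an interval that included 0. The direction of those 5 is that of the abundant ER chaperones. The 6 smooth muscle markers summed to 943.6 and 1195.7, with 6 of 6 higher and Acta2, smooth muscle actin, the most abundant at 544.9 and 643.5. Of these 6, 4 had a counting interval above 0, while the intervals of Myh11, at 0.07, and Des, at 0.18, included 0. The direction of those 4 is that of Hspb1, Hspb7, and Cryab. It is not that of Hspb6, at -0.20, or Hspb8, at -0.01, whose intervals included 0. Of 6 skeletal muscle markers, Ckm and Myh4 had no fragments in either library, and Acta1, the most abundant by the mean of both, had an FPKM of 0.564 and 2.01, with summed levels of 1.71 and 3.04. Mylpf, higher than Acta1 in the sham library, had 1.0 and 0.801. Macrophage markers summed to 567.3 and 595.5 (5 of 7 higher, Lyz2 the most abundant), endothelial markers to 39.3 and 42.9 (5 of 6 higher, Cdh5 the most abundant), and mesothelial markers to 27.2 and 34.0 (4 of 5 higher, Wt1 the most abundant). Within these sums, Lyz2, Wt1, and Cdh5 differed by -0.11, -0.13, and -0.02. The macrophage genes C1qa and Cd68 differed by 0.80 and 0.71. Of the mesothelial genes, Msln had an FPKM of 0.52 and 2.71, a difference of 2.18, and Krt19, Upk3b, and Lrrn4 differed by 1.46, 1.37, and 0.80. All markers of these last 3 lists had fragments in both libraries. The part of these cells in the differences of the chaperone genes was not tested.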

How the data were processed

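The authors deposited 1 value per gene and library on a log2 scale, log2(FPKM + 0.1) rounded to 2 decimals, together with coordinates and gene lengths. The submitters' processing notes name the build mm10. The aligner and the counting tool were not given in the sources used here. The starts of the deposited genes were compared with RefSeq on GRCm38.p6, and 51 of the 74 members shared the chromosome and the start or end.

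FPKM was recovered as 2 to the deposited value minus 0.1. Library totals were taken where values of low genes came closest to whole fragments. This gave 30600000 fragments for the sham-irradiated and 35000000 for the irradiated library, with all 3407 and 3581 low genes within 0.12 of a whole number. Fragments of abundant genes are approximate. Recovery and intervals were tried on simulated counts drawn at these same totals with counting error alone. Such counts cannot check the effect of PCR copies or the spread between cultures.

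Each condition had 1 library, so no test was possible. Genes that reached an FPKM of 1 in either library were kept, and a difference of at least 0.5 was counted. Intervals treat fragments as independent molecules, which PCR copies are not. Of the members, 59 overlap no other listed gene, leaving out listed genes that span 1000000 bases or more.

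Members, compartments, and lists were chosen with earlier results of these data known. Members named with values were well-known genes chosen by symbol, the 5 highest and 5 lowest differences, and in each compartment the 3 most abundant and the extreme differences. For each related list they were the most abundant gene and the extremes, with Hsf1, Xbp1, Cryab, Hyou1, and Trap1. The alternatives were log2(FPKM + 1), no minimum or a minimum of 5, centring on the median difference of genes kept in both libraries, scaling without the 100 most abundant genes, thresholds of 0.25 and 1, means, Hspa1a and Hspa1b as a sum, and Hsp-named or Dnaj-named members alone. For single genes, the fragment ratio without an added value was also computed. Tools were matplotlib 3.10.9, SciPy 1.17.1, pandas 2.3.3, and numpy 2.4.6 on Python 3.11.15.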

Additional observations from a re-analysis of the deposited data

How the results depend on the processing

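The count of members higher by at least 0.5 (2) was 1 with log2(FPKM + 1), 1 after centring, 1 when scaled without the 100 most abundant genes, 1 with a minimum FPKM of 5, 4 with no minimum, 8 at a threshold of 0.25, and 0 at a threshold of 1. Hspb1 alone held through the first 4 of these, because Hspa1a lies at 0.51 and at a low level. The count lower by at least 0.5 (0) was 2 with no minimum and 1 at a threshold of 0.25. For all genes, the counts of 485 higher and 162 lower were 263 and 95 with log2(FPKM + 1), 1324 and 681 with no minimum, 186 and 56 with a minimum of 5, 1550 and 680 at a threshold of 0.25, and 89 and 42 at a threshold of 1. The count of genes higher by any amount (6020) was 9440 with no minimum and 3835 with a minimum of 5, and that of genes lower (4947) was 7558 with no minimum.

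The ER median of -0.10 was -0.21 for its Hsp-named members alone and lay between -0.12 and -0.03 otherwise. Centring shifted all genes by -0.02 and scaling by -0.016. The medians of all members, of the HSF and co-chaperone list, and of the mitochondrial protease and import list, all 0.01, then became -0.01 by centring and -0.006 by scaling, so they have no direction. With centring, 27 members were higher and 31 lower. The 49 genes named by rule stayed within their counting intervals under each scale, centring, and fragment ratio tried, and genes named after their values were seen were not recomputed. No paired analysis was possible because there was 1 library per condition. At these depths, no difference was detectable for the 13 members under an FPKM of 1.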
